A study of Mus musculus with 16 samples.

Results

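Otof, Slc17a8, Cacna1d, Cacnb2, Kcnma1, Ocm, Chrna9, Chrna10 and Calb2 serve the late functions of cochlear hair cells, which are release of transmitter at the ribbon synapse, calcium and potassium currents, and the answer to efferent nerve fibres. These 9 genes, of 36536 counted in each library, were chosen by their known roles as a list of symbols, with earlier results of these data known. Each symbol matched 1 gene identifier. All 9 had enough counts to be tested in each of the 9 comparisons made.

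The RNA came from cochleas of neonatal Lfng-EGFP mice (B6;FVB-Tg(Lfng-EGFP)HM340Gsat/Mmucd), in which regulatory sequence of Lfng on a bacterial artificial chromosome drives green fluorescent protein (GFP) in supporting cells, the cells that surround the hair cells. Explants were made on postnatal day 0 (P0) or 5 (P5) and cultured for 24 hours with 10 µM DAPT, an inhibitor of gamma-secretase which keeps activated Notch receptors from being cleaved. Control explants received 0.04% DMSO, its solvent. The explants were then dissociated and sorted into GFP+ and GFP- cells. This gave 8 groups of 2 libraries and 16 libraries in all, namely P0 DMSO, P0 DAPT, P5 DMSO and P5 DAPT in each of the GFP+ and GFP- fractions. All groups, controls included, carried the transgene and had spent the same time in culture. GFP marks Deiters' cells, outer pillar cells and the border and inner phalangeal cells, but not inner pillar cells. Only the brightest cells were collected as GFP+, so dimly fluorescent cells are in neither fraction. The paper considers it likely that these dim cells were inner pillar and inner hair cells. The labels do not say whether the 2 libraries of a group came from separate litters or cultures, so the p-values measure the spread between these samples, which may be technical.

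A hair cell releases glutamate continuously onto afferent nerve endings. Calcium enters through L-type channels clustered below the synaptic ribbon, and otoferlin couples that calcium to the fusion of vesicles that were filled by a vesicular glutamate transporter. Large-conductance calcium-activated potassium (BK) channels repolarise the cell. Efferent fibres of the brainstem release acetylcholine onto hair cells, where a receptor built of the subunits encoded by Chrna9 and Chrna10 lets calcium in and opens potassium channels. Oncomodulin and calretinin are calcium-binding proteins that shape these signals, the former best known from outer hair cells and the latter from inner hair cells and neurons.

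By position on the NCBIM37 build, Otof lies on chromosome 5 from 30669351 to 30764305, Ocm on chromosome 5 from 144780673 to 144787539, Chrna9 on chromosome 5 from 66326160 to 66368565 and Chrna10 on chromosome 7 from 109259780 to 109265227. Cacna1d spans 30853135 to 31304342 and Kcnma1 24117983 to 24622526 on chromosome 14. Cacnb2 spans 14525933 to 14909535 on chromosome 2, Slc17a8 89036765 to 89083998 on chromosome 10 and Calb2 112661402 to 112692110 on chromosome 8. All are annotated as protein coding, and only Cacnb2 and Chrna9 are on the plus strand. Exons of Cacna1d share 518 bases with Chdh on the opposite strand, and exons of Cacnb2 share 489 bases with the predicted genes Gm10849 and Gm13269 on the opposite strand. Whether strand was used in counting is not given in the sources used here, so reads in those stretches cannot be told apart.

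The libraries held 13755356 to 45465324 counts in genes. In GFP+ libraries 50.05 to 62.02% of the records fell outside genes, against 6.64 to 13.73% in GFP- libraries. Mitochondrial ribosomal RNA took 20.2 to 29.8% of the counts in GFP+ and 0.044 to 0.109% in GFP- libraries, and its part in the differences between fractions was not tested. The P0 DMSO GFP+ libraries formed a series of library numbers of their own and had the most reads with several alignments among GFP+ libraries (8.56 and 7.63%). What these numbers stand for is not stated. The series cannot be told apart from the group in the comparison of DAPT with DMSO in P0 GFP+ cells, in that of P5 with P0 GFP+ cells, and between fractions. Hes5, a direct target of Notch signalling, stood at 112 and 84.8 CPM, the counts scaled by library size, in P0 DMSO GFP+ libraries and at 0.320 and 0.362 CPM with DAPT. Some hair cell markers were not evenly spread over the replicates. P0 DMSO GFP+ replicate 1 held more of Myo7a, a motor protein of hair cells, than replicate 2 (29.1 against 6.31 CPM). It also held more of the hair cell transcription factor Pou4f3 (2.93 against 0.560 CPM). The sum of 10 early hair cell markers differed less, at 378 CPM in replicate 1 and 301 CPM in replicate 2. In the GFP- fraction, sorted as cochlear cells without GFP, Atoh1 lay between 0 and 0.615 CPM and Pou4f3 between 0.164 and 1.12 CPM over 8 libraries. Other early hair cell markers were present there, with Myo6 between 234.5 and 384 CPM and Myo7a between 3.87 and 15.4 CPM. The medians of Jag2 (7.93 against 6.44 CPM) and Dll1 (3.39 against 2.77 CPM) were above those of GFP+ libraries. Those of Barhl1, Gfi1, Insm1 and Lhx3 were below. Throughout, a lower level in such sorted tissue may mean fewer cells of a type or less RNA per cell, and these cannot be told apart.

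**Figure D1:**
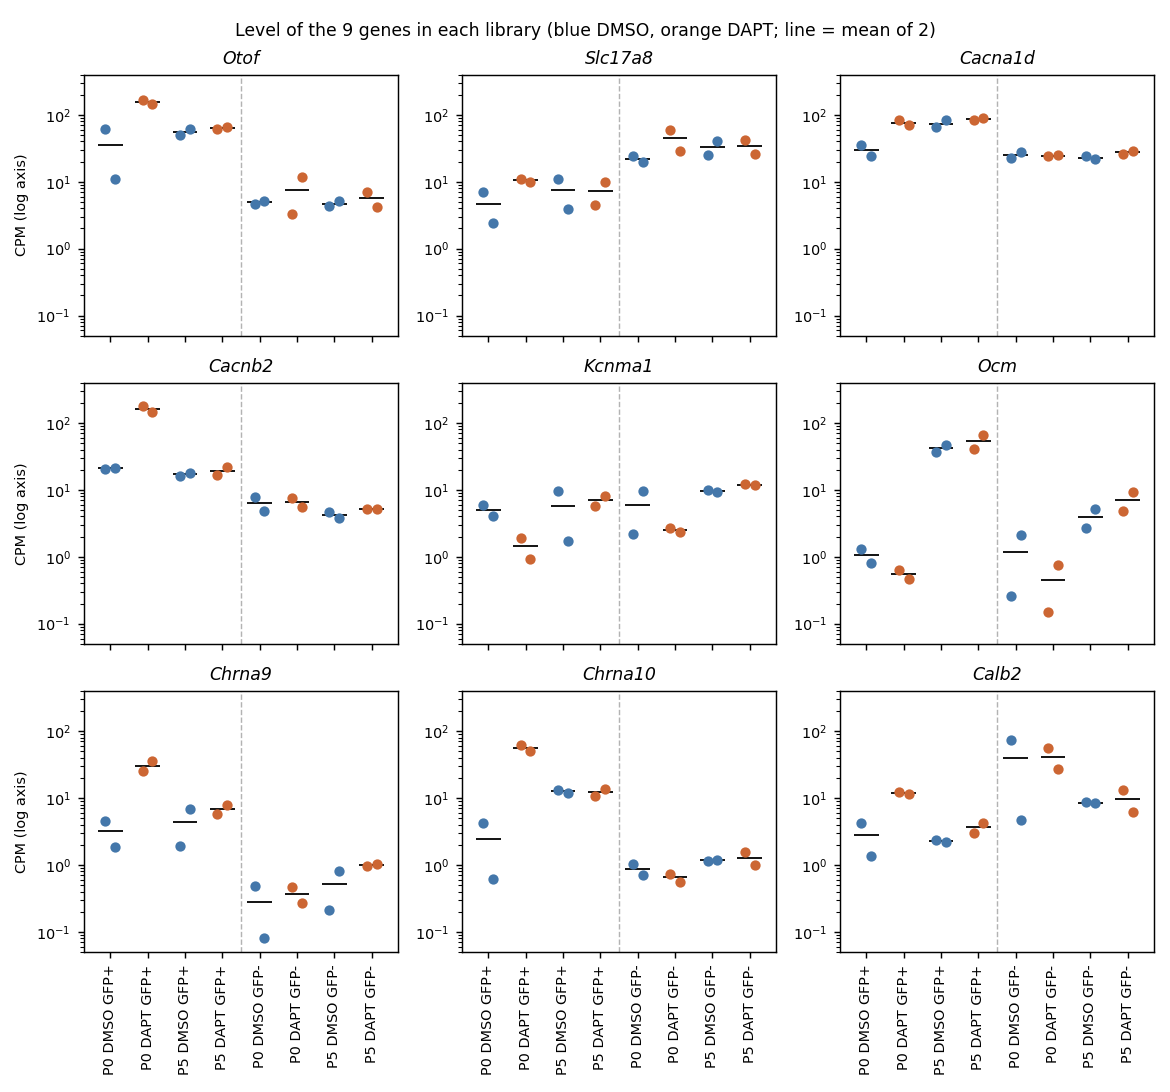
Level of each of the 9 genes in CPM on a log axis, 1 point per library and a line at the mean of the 2 libraries of a group, DMSO in blue and DAPT in orange, GFP+ groups left and GFP- groups right of the dashed line. Cacnb2, Chrna9 and Chrna10 peaked in P0 DAPT GFP+ cells and Ocm in the P5 GFP+ groups. Slc17a8 was higher in every GFP- library than in any GFP+ library. Calb2 had the higher mean in GFP- cells at each age and treatment. Its level in P0 DMSO GFP- replicate 2 (4.69 CPM) lay below both P0 DAPT GFP+ libraries (12.5 and 11.4 CPM).

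The question of the main comparison was how the genes respond when Notch signalling is blocked in supporting cells at birth. In P0 GFP+ cells 4 of the 9 genes rose with DAPT and none fell, where a change means an adjusted p under 0.01 in the quasi-likelihood test of edgeR, adjusted over all genes tested, and a fold change over 2. These limits were passed by 8.37% of the 20711 genes tested, and by 4.2% upwards. The 4 were both calcium channel genes, Cacna1d and Cacnb2, and both subunits of the efferent receptor, Chrna9 and Chrna10. An unadjusted p under 0.05 was reached by 8 of the 9, as by 40.3% of all genes tested. The median log2 fold change of the 9 was 2.06, beside -0.0454 over all genes tested.

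Cacnb2, which encodes the beta subunit that brings the L-type channel to the membrane, was measured at 20.5 and 21.3 CPM in DMSO and at 177 and 144 CPM with DAPT. The replicates lay close together within each treatment and far apart between them. Its log2 fold change was 2.91 (SE 0.16, edgeR adjusted p = 3.7e-06), and it passed the limits under every alternative tried, left-out libraries included. Cacna1d, which encodes the pore of that channel, went from 35.5 and 24.5 CPM to 82.9 and 69.7 CPM. Its log2 fold change was 1.31 (SE 0.20, edgeR adjusted p = 0.0018), so the pore subunit changed by less than the beta subunit on the log2 scale.

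Chrna9 stood at 4.49 and 1.88 CPM in DMSO and at 25.8 and 35.3 CPM with DAPT, a log2 fold change of 3.21 (SE 0.38, edgeR adjusted p = 0.00038). Chrna10 stood at 4.21 and 0.611 CPM in DMSO, the latter resting on 12 counts, and at 62.4 and 49.6 CPM with DAPT. Its log2 fold change of 4.47 (SE 0.56, edgeR adjusted p = 0.00056) was the largest of the 9. Both DMSO libraries lay below both DAPT libraries for either subunit. With 1 library left out, the log2 fold change of Chrna9 ran from 2.75 (without P0 DMSO GFP+ replicate 2) to 4.01 (without replicate 1). That of Chrna10 ran from 3.71 to 6.50 (without the same libraries). With all 8 groups in the fit Chrna9 missed the limits (log2 fold change 3.26, edgeR adjusted p = 0.014).

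Windows of 250 bases before annotated RefSeq gene starts were available for 7 of the 9 genes, 10 windows in all on build GRCm38.p6, and none for Otof and Calb2. They were searched on both strands for the E-box sequences CAGCTG (its own reverse complement) and CAGATG, which basic helix-loop-helix factors such as the hair cell factor ATOH1 can bind, and for GTGGGAA, the core of sites of the Notch effector RBPJ. No motif contains another. CAGCTG was present in 13% of 32851 windows of this length, CAGATG in 14.4% and GTGGGAA in 5.42%. The 4 genes that passed the limits in P0 GFP+ cells are shown. Cacnb2 and Cacna1d have 2 annotated starts each, and the second is shown, which in both genes holds more E-box matches than the first. Capitals mark the E-box matches.
Cacnb2, chr2:14823842-14824091, plus strand: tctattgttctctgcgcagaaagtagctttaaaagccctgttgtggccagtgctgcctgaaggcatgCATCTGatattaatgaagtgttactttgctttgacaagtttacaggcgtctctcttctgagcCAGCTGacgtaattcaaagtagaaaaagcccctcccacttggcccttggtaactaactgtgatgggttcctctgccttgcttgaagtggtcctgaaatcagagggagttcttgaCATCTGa
Cacna1d, chr14:30353487-30353736, minus strand: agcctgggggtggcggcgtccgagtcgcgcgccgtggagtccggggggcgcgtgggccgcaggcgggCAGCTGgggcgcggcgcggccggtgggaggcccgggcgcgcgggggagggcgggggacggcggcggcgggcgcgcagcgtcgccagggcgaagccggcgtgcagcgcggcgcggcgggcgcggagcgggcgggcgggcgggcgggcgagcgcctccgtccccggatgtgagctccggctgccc
Chrna9, chr5:65966874-65967123, plus strand: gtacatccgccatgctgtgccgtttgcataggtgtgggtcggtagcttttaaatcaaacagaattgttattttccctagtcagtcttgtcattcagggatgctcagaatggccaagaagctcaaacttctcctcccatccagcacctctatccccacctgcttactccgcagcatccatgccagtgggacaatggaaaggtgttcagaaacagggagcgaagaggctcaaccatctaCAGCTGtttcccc
Chrna10, chr7:102116714-102116963, minus strand: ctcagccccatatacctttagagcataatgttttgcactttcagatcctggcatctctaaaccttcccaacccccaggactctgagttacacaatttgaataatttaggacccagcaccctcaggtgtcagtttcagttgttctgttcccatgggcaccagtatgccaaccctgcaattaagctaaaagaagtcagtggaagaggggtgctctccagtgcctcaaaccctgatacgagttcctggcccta
The Cacnb2 window holds 1 copy of the palindromic E-box and 2 of the other, both on the opposite strand. Cacna1d and Chrna9 hold 1 copy of the palindromic form each. The window of Chrna10, the gene with the largest change, holds neither. Of the windows not shown, the first start of Cacnb2 holds 1 palindromic E-box, the second start of Slc17a8 holds 1 of the other, and those of Kcnma1 and Ocm and the first starts of Slc17a8 and Cacna1d hold none. GTGGGAA was in 0 of the 10 windows. A match here describes letters in a window and not a bound site.

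The genes of transmitter release did not pass the limits at P0. Otof, the otoferlin gene, was at 61.0 and 10.8 CPM in DMSO and at 168 and 145 CPM with DAPT. The groups did not overlap, but the DMSO libraries differed 5.63-fold between themselves, and the log2 fold change of 2.08 had an SE of 0.57 (edgeR adjusted p = 0.026). P0 DMSO GFP+ replicate 1, the library richer in Otof, is also the one richer in Myo7a and Pou4f3. Summed early hair cell markers differed less, at 378 and 301 CPM in P0 DMSO GFP+ replicates 1 and 2. The part of hair cell RNA in the spread of Otof was not tested. Without P0 DMSO GFP+ replicate 1 the log2 fold change of Otof was 3.85, and without replicate 2 it was 1.34. Either fit takes its spread within groups from the P0 DAPT libraries alone, so the difference between the DMSO libraries does not enter. Otof passed without the filter on low counts (edgeR adjusted p = 6.8e-05) and with the replicate number as a block (edgeR adjusted p = 0.00048). Slc17a8, which encodes the vesicular glutamate transporter of inner hair cells, was at 6.96 and 2.39 CPM in DMSO and at 11.1 and 9.77 CPM with DAPT, a log2 fold change of 1.11 (SE 0.46, edgeR adjusted p = 0.10). Slc17a8 passed in no alternative that kept both P0 DMSO GFP+ libraries. Without P0 DMSO GFP+ replicate 1 its log2 fold change was 2.12.

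Calb2, the calretinin gene, was at 4.17 and 1.37 CPM in DMSO and at 12.5 and 11.4 CPM with DAPT. Its log2 fold change of 2.06 (SE 0.48) narrowly missed the limit (edgeR adjusted p = 0.013) and passed it by the DESeq2 Wald test (adjusted p = 0.00031) and without P0 DMSO GFP+ replicate 1 (3.11, edgeR adjusted p = 0.00093). Kcnma1 and Ocm lay lower with DAPT, without passing the limits. Kcnma1, the gene of the BK channel pore, was at 5.86 and 4.12 CPM in DMSO and 1.92 and 0.931 CPM with DAPT (log2 fold change -1.84, SE 0.52, edgeR adjusted p = 0.030). Ocm, the oncomodulin gene, was at 1.33 and 0.815 CPM in DMSO and 0.641 and 0.465 CPM with DAPT, from 9 to 29 counts a library (log2 fold change -0.99, SE 0.77, edgeR adjusted p = 0.37). All 9 genes thus had no overlap between treatments, as had 68.4% of the genes tested. Of the 9, 7 lay higher with DAPT (33.8% of genes tested) and 2 lower (34.7%). More of the 9 passed without P0 DMSO GFP+ replicate 1, in a fit that leaves out the spread between the P0 DMSO GFP+ libraries.

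**Figure D2:**
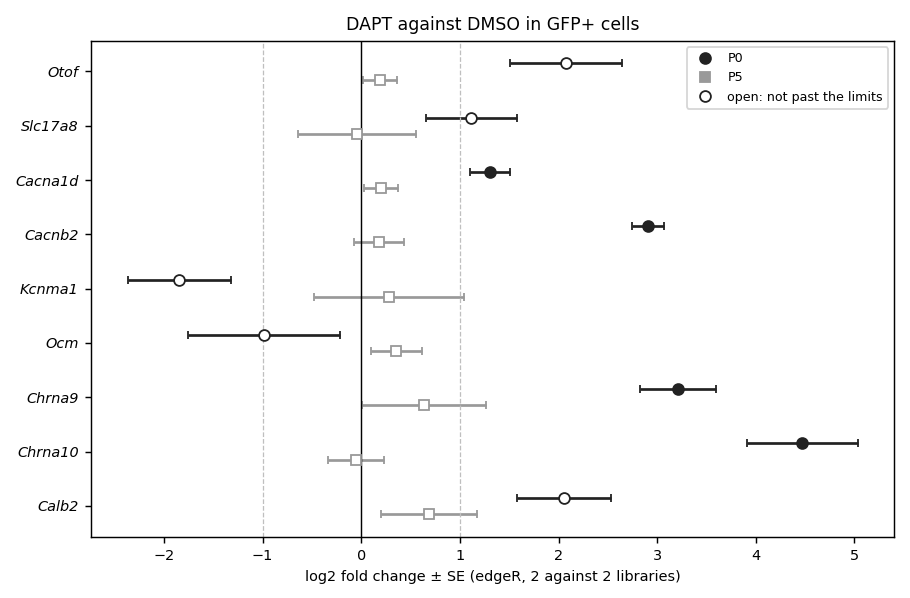
Log2 fold change of DAPT against DMSO in GFP+ cells for the 9 genes at P0 (circles) and P5 (squares), with bars of 1 SE from edgeR and dashed lines at a fold change of 2. Filled symbols passed the limits, which at P0 were Cacna1d, Cacnb2, Chrna9 and Chrna10, while the P5 values lie between -0.06 and 0.69.

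Markers of hair cells and neurons moved in the same comparison. All 10 early hair cell markers rose in P0 GFP+ cells with DAPT (median log2 fold change 4.91), among them Atoh1, the factor that starts hair cell fate, at 8.29 and 5.29 CPM in DMSO against 275 and 237 CPM with DAPT. Their summed level went from 378 and 301 CPM to 2749 and 2510 CPM. Of 12 supporting cell markers 7 fell and none rose. Of 12 neuron markers 10 could be tested, 6 rose (Nefm, Stmn2, Elavl4, Map2, Syn1 and Syp) and none fell. Their summed level was 64.6 and 46.1 CPM in DMSO and 146 and 172 CPM with DAPT, and Prph and Elavl3 were too low to test. The part of neurons in the rise of synaptic genes was not tested.

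Related genes in 5 lists were read beside the 9, and 62 of the 65 could be tested in P0 GFP+ cells. Of these, 18 rose and 3 fell, with a median log2 fold change of 0.595. Among 15 genes of the ribbon synapse and vesicle release, 6 rose and none fell. Rims2, which organises the active zone, was at 23.4 ± 1.93 CPM in DMSO and 248 ± 2.52 CPM with DAPT (SD, n = 2), a log2 fold change of 3.37 (edgeR adjusted p = 1.3e-06). Rimbp2, a scaffold that links calcium channels to vesicles, rose by a log2 fold change of 3.44, Snap25, a SNARE of neuronal exocytosis, by 3.25 and Bsn, the bassoon gene that anchors ribbons, by 2.44. Erc2 and Stx1a also rose, and Ctbp2, which encodes the ribbon protein RIBEYE, did not pass (log2 fold change 0.49, edgeR adjusted p = 0.14).

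Of the 13 other subunits of voltage-gated calcium channels, 2 rose and 1 fell. Cacna1b, the N-type pore, went from 17.7 ± 5.93 to 77.2 ± 22.2 CPM (log2 fold change 2.08), and the beta subunit gene Cacnb3 from 22.9 ± 2.24 to 61.2 ± 8.63 CPM (1.38). Cacna1a, the P/Q-type pore, fell from 9.29 to 1.89 CPM. The median log2 fold change of this list was -0.45. Of 12 potassium and HCN channel genes 9 could be tested, 2 rose and 1 fell. Kcnmb2, an accessory subunit of the BK channel, went from 4.30 ± 2.27 to 19.7 ± 2.01 CPM (log2 fold change 2.15), while the pore gene Kcnma1 lay lower with DAPT as given above. Kcnj2, an inward rectifier, fell from 27.4 to 5.84 CPM.

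Of 14 other nicotinic receptor and receptor clustering genes, 4 rose and 1 fell. Chrnb2, a neuronal receptor subunit, was at 5.15 ± 1.07 CPM in DMSO and 47.3 ± 4.64 CPM with DAPT (log2 fold change 3.16). The muscle-type subunit genes Chrng, Chrnd and Chrnb1 rose by 2.94, 2.41 and 1.42, and Agrn, which encodes the clustering protein agrin, fell. The rise of Chrnd rested in part on P0 DAPT GFP+ replicate 1, since without it the log2 fold change was 1.62 (edgeR adjusted p = 0.023). Of 11 calcium buffers and pumps 4 rose and none fell. Slc8a1, a sodium-calcium exchanger, rose most, from 24.8 ± 9.97 to 556 ± 111 CPM (log2 fold change 4.45), ahead of Atp2b2, the calcium pump of the hair bundle (2.79), and Slc8a2 (2.47). In the fit of all 8 groups Rimbp2, Snap25, Cacna1b, Kcnmb2, Chrnb2 and Chrnd missed the limit on the adjusted p, with values from 0.013 to 0.13.

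**Figure D3:**
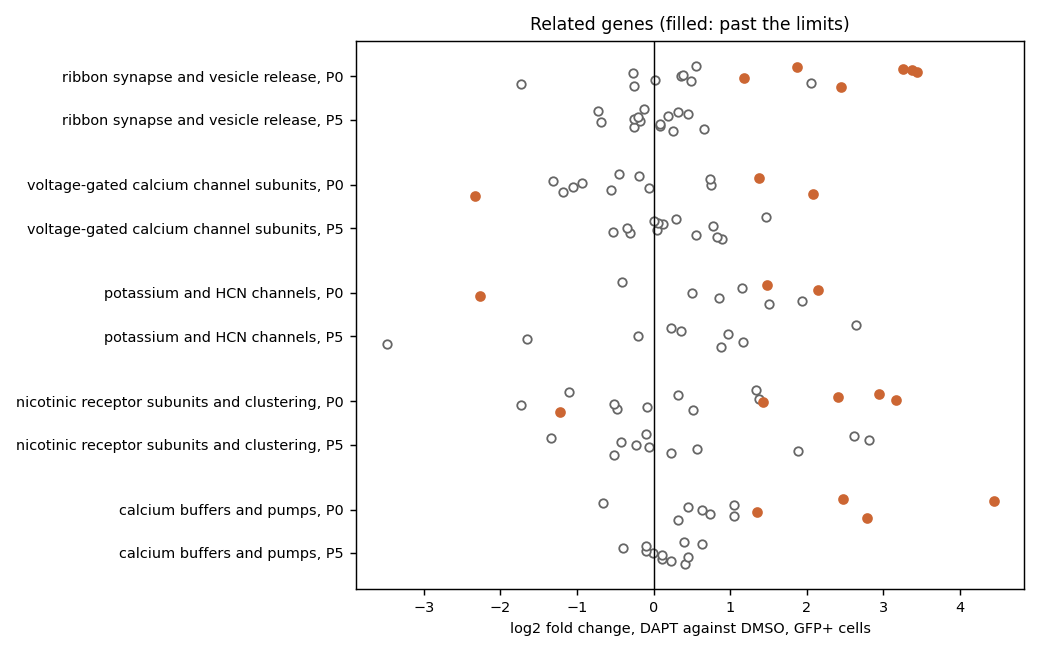
Log2 fold change of DAPT against DMSO in GFP+ cells for each tested gene of the 5 related lists, 1 row per list and age and 1 point per gene, filled where the gene passed the limits. At P0 18 genes rose and 3 fell of 62 tested, and at P5 no gene passed of 58 tested.

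The same block of Notch signalling at P5 was compared to ask whether older supporting cells still respond. None of the 9 genes passed the limits in P5 GFP+ cells by edgeR or by DESeq2, none had an unadjusted p under 0.05 (5.08% of genes tested had), and the edgeR adjusted p was 0.99 or more for each. The limits were passed by 0% of the 18754 genes tested by edgeR, while the DESeq2 Wald test put 59 past them. Cacnb2 was at 16.1 and 17.9 CPM in DMSO and at 16.7 and 21.9 CPM with DAPT, and Chrna10 at 13.3 and 11.9 CPM in DMSO and at 10.6 and 13.6 CPM with DAPT. The treatments overlapped for both genes.

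Otof was at 49.8 and 60.8 CPM in DMSO and at 60.7 and 65.7 CPM with DAPT at P5, and Cacna1d at 65.7 and 82.6 CPM against 82.2 and 88.1 CPM. Chrna9 was at 1.90 and 6.89 CPM against 5.77 and 7.92 CPM, and Slc17a8 at 10.8 and 3.97 CPM against 4.52 and 9.86 CPM. These pairs overlapped too, and for Slc17a8 and Chrna9 the replicates of 1 treatment spanned a wide range. Ocm was at 36.9 and 46.6 CPM in DMSO and 41.4 and 65.4 CPM with DAPT, and Kcnma1 at 9.72 and 1.71 CPM against 5.77 and 8.13 CPM. Only Calb2, at 2.32 and 2.20 CPM in DMSO and 3.04 and 4.25 CPM with DAPT, did not overlap (log2 fold change 0.69, SE 0.49). Of all genes tested 34.6% did not overlap between treatments, and 17% lay higher with DAPT.

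Log2 fold changes at P5 ranged from -0.06 for Chrna10 to 0.69 for Calb2, with a median of 0.199 beside -0.000774 over all genes. SEs ran from 0.17 for Cacna1d and Otof to 0.76 for Kcnma1, so that a change of 2-fold in Kcnma1, Slc17a8 or Chrna9 would have been less than 2 SEs. No related gene passed of 58 tested, and none of the marker genes did. Of 10 early hair cell markers 9 had positive log2 fold changes (median 1.03) and 5 an unadjusted p under 0.05. Of 12 supporting cell markers 11 had negative ones (median -0.823) and 9 an unadjusted p under 0.05. Atoh1 was at 0.611 and 0.771 CPM in DMSO and at 13.2 and 2.78 CPM with DAPT.

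The difference between the responses at P5 and P0 was tested directly as an interaction over the 4 GFP+ groups. Of the 9 genes, Cacnb2 passed the limits, with a difference of the log2 fold changes (P5 minus P0) of -2.72 (SE 0.26, edgeR adjusted p = 0.00096), where 1.1% of 22199 genes passed, 0.392% upwards and 0.712% downwards. By the DESeq2 Wald test Chrna9 and Chrna10 passed as well. An unadjusted p under 0.05 was reached by 6 of the 9 and by 21.4% of all genes. Chrna10 had a larger difference with a wider error, -4.53 (SE 0.81, edgeR adjusted p = 0.016). It was -6.55 without P0 DMSO GFP+ replicate 1 and -3.75 without replicate 2. Those 2 libraries differed 6.9-fold in Chrna10, and a fit that drops 1 of them leaves that spread out. Otof had -1.89 (SE 0.78, edgeR adjusted p = 0.20), and -3.65 without P0 DMSO GFP+ replicate 1. Chrna9 and Cacna1d had -2.58 and -1.11, Calb2 and Slc17a8 -1.37 and -1.15, and Kcnma1 and Ocm 2.13 and 1.35, with edgeR adjusted p from 0.068 to 0.47. In the main edgeR fit a different response between the ages was therefore shown for Cacnb2 alone of the 9. Chrna10 passed by the DESeq2 Wald test, as given above, and with all 8 groups in the fit (edgeR adjusted p = 0.0097). The other genes' responses are not shown to be alike. Of the related genes Rims2, Rimbp2, Snap25, Chrnb2 and Slc8a1 passed in the same direction, of 64 tested, and each of these 5 missed the limit without at least 1 of the 8 libraries. Without P0 DMSO GFP+ replicate 2 the edgeR adjusted p was 0.016 for Rims2, 0.033 for Rimbp2, 0.035 for Snap25, 0.012 for Chrnb2 and 0.042 for Slc8a1. With all 8 groups in the fit Rimbp2, Snap25 and Chrnb2 missed it as well (edgeR adjusted p = 0.12, 0.21 and 0.084).

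In GFP- cells DAPT moved 0 of the 9 genes past the limits at P0 or P5 by edgeR, which 0% of all genes tested passed at either age. By the DESeq2 Wald test 0 of the 9 passed as well, beside 28 of all genes at P0 and 8 at P5. By edgeR 0 of the 9 had an unadjusted p under 0.05, beside 3.54% of all genes at P0 and 1.98% at P5. The only groups that did not overlap at P0 were those of Slc17a8, at 24.3 and 19.7 CPM in DMSO and 59.7 and 29.0 CPM with DAPT (log2 fold change 0.98, SE 0.38, edgeR adjusted p = 1), where 32.1% of genes tested did not overlap and 19% lay higher with DAPT. At P5 Cacna1d, Cacnb2, Kcnma1 and Chrna9 did not overlap between treatments, with log2 fold changes from 0.27 to 0.95, all of them higher with DAPT. There 18.7% of genes tested did not overlap, 8.49% lay higher and 10.2% lower. Cacnb2 and Chrna10, which rose in GFP+ cells at P0, were at 7.90 and 4.80 CPM and at 1.02 and 0.712 CPM in P0 DMSO GFP- libraries, and at 7.47 and 5.56 CPM and at 0.743 and 0.563 CPM with DAPT.

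To ask where the genes were expressed without treatment, GFP+ cells were compared with GFP- cells of the DMSO cultures. At P5 5 of the 9 genes were higher in GFP+ cells, Otof, Cacna1d, Cacnb2, Ocm and Chrna10, and Calb2 was lower. The limits were passed by 33.9% of 19008 genes there, 18.4% higher and 15.5% lower. An unadjusted p under 0.05 was reached by 8 of the 9 and by 63.3% of all genes. Otof was at 49.8 and 60.8 CPM in GFP+ and 4.27 and 5.07 CPM in GFP- cells (log2 fold change 3.70, SE 0.24, edgeR adjusted p = 0.00056). Chrna10 was at 13.3 and 11.9 CPM against 1.15 and 1.2 CPM (3.55, edgeR adjusted p = 0.0013), and Ocm at 36.9 and 46.6 CPM against 2.70 and 5.22 CPM (3.54, edgeR adjusted p = 0.0013). Neither gene's fractions came near each other. Between fractions at P5 37.8% of genes tested lay higher in both GFP+ libraries than in both GFP- libraries, and 45.1% lower. Of 10 early hair cell markers 9 could be tested at P5, with a median log2 fold change of 2.66. Atoh1, Gfi1 and Lhx3 were higher in GFP+ cells and Dll1 lower. At P0 0 of the 10 passed the limits, with a median of 1.52. Of 12 supporting cell markers 9 were higher at P5 (median 2.69) and 11 at P0 (3.56), and 0 were lower. The part of hair cell RNA in the levels of the 9 genes was not tested.

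Cacnb2 and Cacna1d were higher in P5 GFP+ cells by log2 fold changes of 2.14 and 1.83 (edgeR adjusted p = 0.0031 and 0.0014). Without P5 DMSO GFP- replicate 2 both missed the limit at similar log2 fold changes (1.95 and 1.73, edgeR adjusted p = 0.021 and 0.011), and without replicate 1 Cacnb2 did (2.27, 0.014). Calls over all genes fell from 6450 to 2136 without replicate 2. Calb2 was at 2.32 and 2.20 CPM in GFP+ and 8.66 and 8.43 CPM in GFP- cells, and its log2 fold change of -1.78 lay at the edge of the limit (edgeR adjusted p = 0.0099). It was lost without P5 DMSO GFP- replicate 1 or 2 (0.050 and 0.048), with DESeq2 size factors (0.011) and with all 8 groups in the fit (0.089). Slc17a8 was at 10.8 and 3.97 CPM against 25 and 40.6 CPM (-2.01, edgeR adjusted p = 0.017) and Chrna9 at 1.90 and 6.89 CPM against 0.211 and 0.824 CPM (3.23, edgeR adjusted p = 0.026). The number of genes past the limits was 9 without P5 DMSO GFP+ replicate 1, 7 without GFP+ replicate 2, 4 without GFP- replicate 1 and 3 without GFP- replicate 2.

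At P0 only Cacnb2 passed between the fractions, where 40.9% of 21779 genes did and 25.5% upwards. An unadjusted p under 0.05 was reached by 5 of the 9 and by 64.8% of all genes. It was at 20.5 and 21.3 CPM in GFP+ and 7.90 and 4.80 CPM in GFP- cells (log2 fold change 1.82, SE 0.36, edgeR adjusted p = 0.0060). The call was lost without P0 DMSO GFP+ replicate 1 or 2 (log2 fold change 1.81 and 1.79, edgeR adjusted p = 0.052 and 0.056), settings in which 0 of all genes tested passed. Otof (2.97), Chrna9 (3.57), Slc17a8 (-2.12) and Calb2 (-3.73) had larger log2 fold changes with wider errors and edgeR adjusted p from 0.016 to 0.044. Without P0 DMSO GFP- replicate 1, 4 of the 9 passed, and without replicate 2, 4 passed as well. Ocm was at 1.33 and 0.815 CPM in GFP+ and 0.261 and 2.08 CPM in GFP- cells, and the fractions overlapped. Chrna10, at 4.21 and 0.611 CPM against 1.02 and 0.712 CPM, also overlapped at P0 (log2 fold change 1.59, SE 0.95). Of all genes tested 82.7% did not overlap, 43.4% being higher and 39.2% lower in GFP+ cells.

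**Figure D4:**
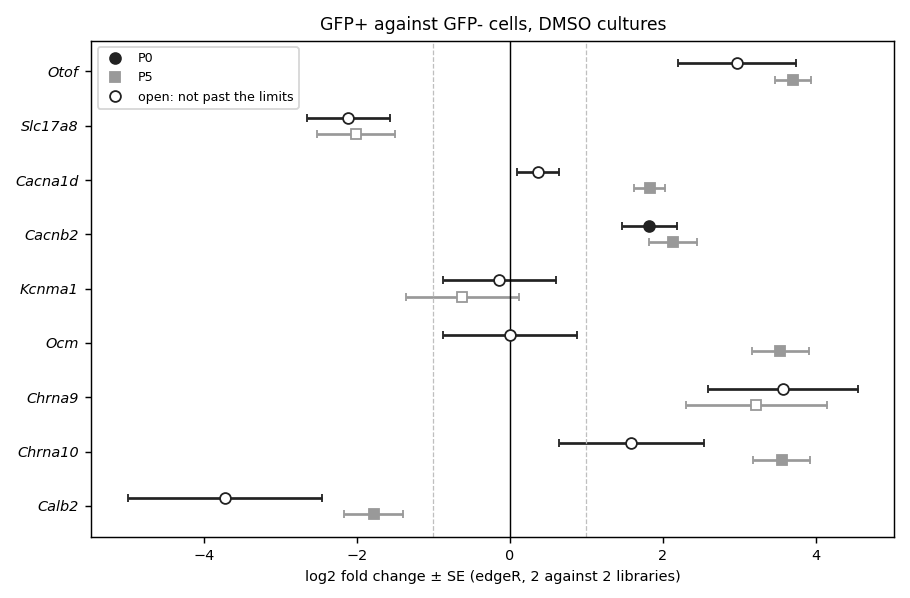
Log2 fold change of GFP+ against GFP- cells in DMSO cultures for the 9 genes at P0 (circles) and P5 (squares), with bars of 1 SE from edgeR and filled symbols past the limits. At P5 Otof, Ocm and Chrna10 lay between 3.54 and 3.70 and Calb2 at -1.78, and at P0 only Cacnb2 passed.

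Related genes passed in both directions between the fractions, 13 higher and 6 lower of 59 tested at P5. Pclo, the piccolo gene of the active zone, was at 114 ± 14.5 CPM in P5 GFP+ and 3.90 ± 0.972 CPM in P5 GFP- cells (log2 fold change 5.00), and Rims2 at 37.9 ± 14.2 against 1.76 ± 0.127 CPM (4.56). The calcium-binding protein gene S100a1 was at 1309 ± 265 against 68.6 ± 33.8 CPM (4.40) and Calb1 at 58.1 ± 2.09 against 11.0 ± 3.62 CPM (2.54). Ctbp2, Cacna1h, Cacna1c, Cacnb3, Agrn and Calm3 were lower in GFP+ cells. Ctbp2, Cacna1c and Cacnb3 missed the limit without P5 DMSO GFP- replicate 1 (edgeR adjusted p = 0.013, 0.045 and 0.012) and without replicate 2 (0.011, 0.016 and 0.012), Cacna1h without replicate 1 (0.021), and Calb1 with all 8 groups in the fit (0.017).

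Between P0 and P5, only Ocm of the 9 genes rose in DMSO GFP+ cells, from 1.33 and 0.815 CPM to 36.9 and 46.6 CPM. All P5 libraries lay far above all P0 libraries. Markers of other cell types differed in the same comparison, and their part in the rise of Ocm was not tested. All 8 mesenchyme markers had positive log2 fold changes (median 2.33), 7 of them with an unadjusted p under 0.05, though none passed the limits. Summed markers of stria, endothelium and blood were at 186 and 185 CPM at P0 and at 508 and 712 CPM at P5. Kcnj10 made up most of that sum in GFP+ libraries, with a median of 245 CPM beside a summed median of 282 CPM. Its median in GFP- libraries was 49.3 CPM. Of 10 tested genes of that list, Kcnj10 alone passed the limits. The log2 fold change of Ocm was 5.23 (SE 0.34, edgeR adjusted p = 0.00020), and Ocm passed in every setting tried. The limits were passed by 3.32% of 20844 genes, 2.01% upwards and 1.3% downwards. An unadjusted p under 0.05 was reached by 3 of the 9 and by 29.8% of all genes. Cacna1d went from 35.5 and 24.5 CPM to 65.7 and 82.6 CPM (1.26, SE 0.23, edgeR adjusted p = 0.014), past the limit by DESeq2 (adjusted p = 2.7e-05). With 1 library left out its log2 fold change ran from 1.01 to 1.56.

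Chrna10 went from 4.21 and 0.611 CPM at P0 to 13.3 and 11.9 CPM at P5 (log2 fold change 2.33, SE 0.72, edgeR adjusted p = 0.072), and Otof from 61.0 and 10.8 CPM to 49.8 and 60.8 CPM (0.58, SE 0.61). Without P0 DMSO GFP+ replicate 1 these log2 fold changes were 4.32 and 2.32, and without replicate 2 Otof turned to -0.20. Either fit leaves out the spread between the P0 DMSO GFP+ libraries. The remaining 5 genes had log2 fold changes from -0.34 to 0.61. The P5 level of Chrna10 in DMSO, near 12 CPM, lay below the 62.4 and 49.6 CPM of P0 DAPT GFP+ cells, and that of Ocm lay far above the 0.641 and 0.465 CPM there. No test was made between these groups.

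In GFP- cells none of the 9 genes passed between P0 and P5 by edgeR, 0% of 17423 genes did, and 0 of the 9 passed by DESeq2 or had an unadjusted p under 0.05 by edgeR (0.775% of all genes had), beside 1 of all genes past the limits by DESeq2. The count depended on P0 DMSO GFP- replicate 2, which differed from replicate 1 in neuron markers (summed 113 against 530 CPM). Without it the log2 fold change was 3.87 for Ocm and -3.16 for Calb2, in a fit that leaves out the spread between the P0 DMSO GFP- libraries. Ocm was at 0.261 and 2.08 CPM in P0 and 2.70 and 5.22 CPM in P5 DMSO GFP- libraries.

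The level of the genes relative to each other was compared per kilobase of exon, as CPM per kb. In P0 DAPT GFP+ cells Chrna10 (22.3 ± 3.60), Otof (19.8 ± 2.05) and Cacnb2 (17.4 ± 2.55) led, and these neighbours lay within their spread (SD, n = 2). They were followed by Chrna9 (10.1 ± 2.22), Cacna1d (8.16 ± 1.00) and Calb2 (6.85 ± 0.454), with Kcnma1 last (0.300 ± 0.147). In P5 DMSO GFP+ cells Ocm led by a wide margin (56.9 ± 9.30), ahead of Cacna1d (7.93 ± 1.28), Otof (7.0 ± 0.985) and Chrna10 (5.01 ± 0.384). Kcnma1 had the lowest mean again (1.2 ± 1.19), but Calb2 (1.30), Chrna9 (1.46), Slc17a8 (1.57) and Cacnb2 (1.84) lay within its spread. In P0 DMSO GFP+ cells the 9 genes lay between 0.960 for Chrna10 and 4.55 for Otof, most of them within their spread. In the GFP- groups Calb2 led at P0 (22.8 ± 28.4 in DMSO and 23.8 ± 11.9 with DAPT), Slc17a8 in P5 DMSO (6.95 ± 2.34) and Ocm in P5 DAPT (9.56 ± 4.34), and Chrna9 was last in all 4 groups.

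Correlations of the 9 genes with the summed markers of 6 cell classes were computed in each fraction, and the following were chosen after their values were seen. In GFP- libraries Calb2 ranged from 4.69 to 74.8 CPM. It was highest in P0 DMSO GFP- replicate 1 and P0 DAPT GFP- replicate 1 (74.8 and 56.1 CPM), the libraries with the most summed neuron markers (530 and 511 CPM), and its Pearson r with that sum was 0.99 over 8 libraries, which share groups and depth. Calretinin is present in spiral ganglion neurons. Kcnma1 in GFP+ libraries was highest in P5 DMSO GFP+ replicate 1 and P5 DAPT GFP+ replicate 2 (9.72 and 8.13 CPM), the libraries with the most summed mesenchyme markers (1715 and 1740 CPM, against 120 to 666 CPM in the other GFP+ libraries), with an r of 0.73. In GFP- libraries those markers summed to 8533 to 14340 CPM, and Kcnma1 had an r of 0.82 with them and one of 0.90 with summed early hair cell markers, there mostly Myo6. In GFP+ libraries the r with summed early hair cell markers was 0.97 for Cacnb2, 0.95 for Calb2 and 0.92 for Chrna9. It was 0.83 for Chrna10 and 0.78 for Otof, and the P0 DAPT libraries set the range. In GFP- libraries these values were -0.84, -0.95, 0.30, 0.31 and 0.09. With summed neuron markers the r in GFP+ libraries was 0.97 for Cacna1d (0.40 with early hair cell markers), 0.78 for Chrna10 and 0.69 for Otof. In GFP- libraries the r with neuron markers was -0.57, -0.23 and 0.04 for these genes, and 0.82 for Cacnb2 (0.20 in GFP+ libraries). Map2 had a median of 95.5 CPM in GFP+ libraries, beside a median of 163.9 CPM for the whole neuron sum. Its median in GFP- libraries was 80.7 CPM. Ocm in GFP+ libraries had an r of 0.93 with summed markers of stria, endothelium and blood, which were mostly Kcnj10 there. Its r was 0.87 with those of mesenchyme and -0.53 with those of early hair cells. In GFP- libraries these values were 0.59, 0.56 and 0.91. The part of these other cell types in the levels was not tested.

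**Figure D5:**
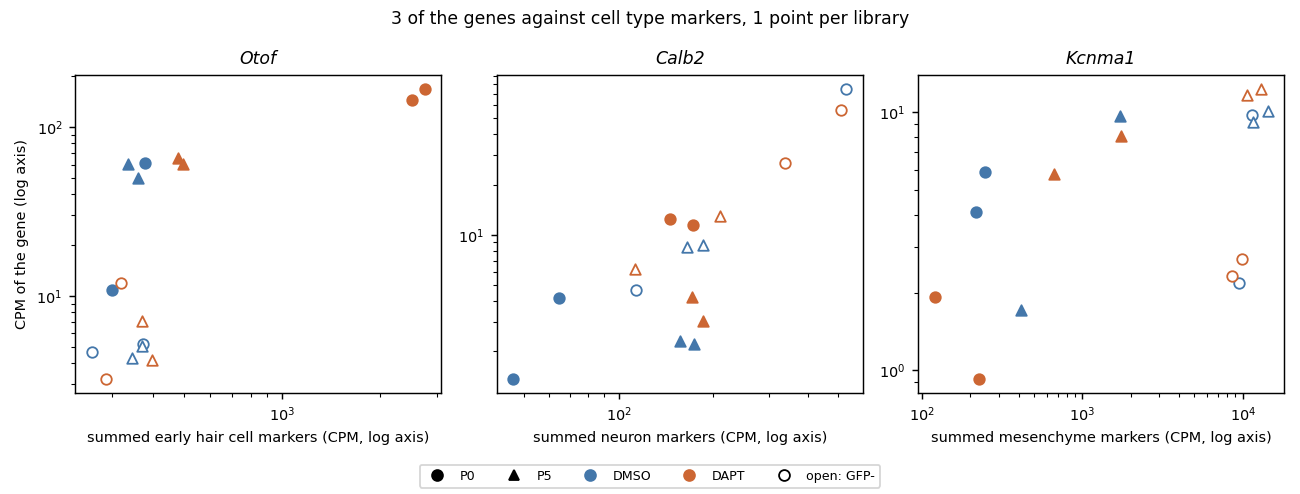
Level of Otof, Calb2 and Kcnma1 against the summed level of early hair cell, neuron and mesenchyme markers, 1 point per library, both axes in CPM on log scales, with circles for P0, triangles for P5, blue for DMSO, orange for DAPT and open symbols for GFP-. Calb2 in GFP- libraries followed the neuron markers up to 74.8 CPM, and Otof was highest in the P0 DAPT GFP+ libraries.

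Genes whose pattern was most like that of each of the 9 were sought by Pearson r of log2(CPM + 1) over the 8 GFP+ libraries among the 10609 genes that averaged 10 CPM or more in 1 or more GFP+ groups. The 8 points share groups, so the r values are a description. Cacnb2 was closest to Zfp318 (r = 0.995), Cacng5 (0.994) and Fcho1 (0.993), and Cacng5, itself a gene of a calcium channel or AMPA receptor auxiliary subunit, averaged 1.96 CPM in P0 DMSO and 58.6 CPM in P0 DAPT GFP+ cells. Calb2 was closest to Grxcr2 (0.989), which acts in the hair bundle, Calml4 (0.986) and Scg3 (0.985). Chrna10 was closest to 2410002O22Rik (0.977), and Rassf3 (0.973) was also among its 3 closest.

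Chrna9 was closest to Immt (0.986), Btaf1 (0.985) and Gde1 (0.979), and Otof to Sec23b (0.980), Apba1 (0.971) and Tceb1 (0.962). Ocm was closest to Nceh1 (0.996), Grlf1 (0.995) and Cpd (0.993), of which Nceh1 averaged 42.8 CPM in P0 DMSO and 101 CPM in P5 DMSO GFP+ cells, a smaller step than that of Ocm. Cacna1d was closest to Mtmr11 (0.988), Phkb (0.983) and D0H4S114 (0.981). Slc17a8 was closest to Wdr81 (0.943), Dpysl3 (0.936) and Crkl (0.919), and Kcnma1 to Nucb2 (0.990), Pawr (0.968) and Tfpi (0.964). The 9 genes themselves were left out of this search, so their likeness to each other was not ranked.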

How the data were processed

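RNA of sorted GFP+ and GFP- cells was sequenced as paired ends after an added amplification of complementary DNA where a sample held few cells, as the authors describe. The authors aligned reads to mm9 (NCBIM37) with TopHat (1.4.0 in the submitters' processing notes, which also name HTSeq and DESeq 1.9.2) and deposited raw counts per Ensembl gene, 1 library per file. The settings of the counting are not given in the sources used here. Amplification can widen the spread between replicates and raise the share of reads outside genes. Each file held 36536 genes and 5 closing lines, which entered no test. Those lines covered reads outside genes (6.64 to 62.02% of records), ambiguous reads and reads that were unaligned, of low quality or aligned to several places. Gene symbols matched 34391 identifiers.

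Groups came from the sample titles. Counts were filtered with filterByExpr (minimum count 10, minimum total 15), scaled with TMM and tested with the quasi-likelihood F test of edgeR 4.0.16 in R 4.3.3, on the groups compared only and without a replicate block. Adjustment (Benjamini-Hochberg) ran over all genes tested. The SE is the log2 fold change divided by the square root of F. CPM was computed over all 16 libraries after TMM over 24731 genes, and CPM per kb divides it by exonic length in GENCODE M1. All values are from 2 replicates a group, so no rule for outlying samples could be applied. Tables were joined with Python 3.11.15, and the fit was tested on simulated data. Promoter windows came from RefSeq on GRCm38.p6. The alternatives were DESeq2 size factors, no low-count filter, the DESeq2 1.42.0 Wald test, an adjusted p limit of 0.05, all 8 groups in 1 fit, each replicate left out in turn, and a block for replicate number. With a replicate left out, its group holds 1 library and the spread within that group does not enter the fit. A gene that newly passes in such a fit is not thereby shown to change.

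The 9 genes, the related lists and the marker lists were chosen with earlier results of these data known. Named related genes were at most 4 per list and comparison, those with the largest changes past the limits whose replicates did not overlap and whose higher group averaged 10 CPM or more. Related genes named otherwise were chosen after their values were seen. The 3 most similar genes were sought for each of the 9. A few genes that these rules pick are not reported here.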

Additional observations from a re-analysis of the deposited data

Results flagged for a closer look

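The response to DAPT differed between P0 and P5 GFP+ cells for Cacnb2 and 5 related genes, by the edgeR test of the interaction (P5 minus P0 log2 fold change). Cacnb2 differed by -2.72 (adjusted p = 0.00096), and it was the only one of the 9. Rims2 differed by -2.93 (adjusted p = 0.0020), Rimbp2 by -3.26 (adjusted p = 0.0089) and Snap25 by -2.94 (adjusted p = 0.0083), all of vesicle release. The receptor subunit gene Chrnb2 differed by -3.38 (adjusted p = 0.0032) and the exchanger gene Slc8a1 by -3.82 (adjusted p = 0.0080). Cacnb2 passed with each library left out in turn. Rims2 missed the limit without P0 DMSO GFP+ replicate 2 (adjusted p = 0.016), Rimbp2 without each of 7 of the 8 libraries, and Snap25, Chrnb2 and Slc8a1 without either P0 DMSO GFP+ replicate and without P0 DAPT GFP+ replicate 1, Snap25 also without P0 DAPT GFP+ replicate 2 (adjusted p = 0.027). With all 8 groups in the fit Rimbp2, Snap25 and Chrnb2 missed it (adjusted p = 0.12, 0.21 and 0.084). The P0 DMSO GFP+ libraries, which enter each of these differences, formed a library series of their own, and its part in the differences was not tested.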

How the results depend on the processing

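The number of the 9 genes past the limits (4 for DAPT in P0 GFP+ cells) was 7 at an adjusted p limit of 0.05, where Kcnma1 was lower. For the difference of the responses between ages (1 gene) it was 2 at that limit, 5 without the low-count filter, 3 by DESeq2 and 2 with all 8 groups in the fit. Between fractions at P0 (1 gene) the corresponding numbers were 5, 4, 4 and 5, and between ages in GFP+ cells (1 gene) 2, 3, 3 and 2. Leaving out 1 library gave 4 to 7 genes for DAPT in P0 GFP+ cells, 1 to 3 for the difference between ages, 0 to 4 and 3 to 9 between fractions at P0 and P5, 1 to 4 and 0 to 2 between ages in GFP+ and GFP- cells, and 0 to 0 in the other 3 comparisons. Over all genes the calls for DAPT in P0 GFP+ cells ranged from 1089 to 3761 (1733 in the report), those for the difference between ages from 59 to 906 (245), those between fractions at P0 from 0 to 11637 (8917) and at P5 from 2136 to 9177 (6450), and those between ages in GFP+ cells from 471 to 2003 (691). From 0 in the report, the calls reached 108 for DAPT in P5 GFP+ cells, 549 and 11 in GFP- cells at P0 and P5, and 492 between ages in GFP- cells. DESeq2 size factors moved the median of all genes between fractions from 0.18 to 0.31 at P0 and from -0.025 to 0.089 at P5. The causes were not tested.

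The labels do not say that a replicate number marks a shared litter or day, and deviations of same-numbered samples correlated by between -0.28 (DAPT, P5 GFP+) and 0.73 (DAPT, P5 GFP-). With the replicate number as a block, 6 genes passed for DAPT in P0 GFP+ cells, 4 between fractions at P0 and 2 between ages in GFP+ cells, and Calb2 no longer passed between fractions at P5 (adjusted p = 0.02 by edgeR). Under the block Slc17a8 in P5 GFP+ cells turned to 0.032, Kcnma1 between fractions at P0 to 0.20 and Kcnma1 between ages in GFP+ cells to -0.26. A crossed pairing, chosen after seeing the data, gave 0 of the 9 and 0 of all genes for DAPT in P5 GFP+ cells, with Slc17a8 at 0.016.

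Of 1345 single-gene values under the alternatives, 1150 kept their direction and side of the limits, 73 passed newly, 76 no longer passed and 46 changed sign, none of the last from a called value. Ocm between fractions at P0 changed sign without the filter (-0.13) and with all 8 groups (-0.094). Values that changed sign when 1 library was left out had these log2 ranges. For DAPT in P5 GFP+ cells these were Slc17a8 from -0.70 to 0.87, Cacnb2 from -0.019 to 0.35, Kcnma1 from -0.47 to 2.03, Ocm from -0.0040 to 0.63, Chrna9 from -0.0021 to 1.86 and Chrna10 from -0.24 to 0.10. For DAPT in P0 GFP- cells these were Otof from -0.66 to 1.26, Cacna1d from -0.23 to 0.13, Cacnb2 from -0.30 to 0.39, Kcnma1 from -2.0 to 0.19, Ocm from -3.0 to 0.76, Chrna9 from -0.38 to 2.08 and Calb2 from -0.87 to 3.09. For DAPT in P5 GFP- cells these were Otof from -0.17 to 0.62, Slc17a8 from -0.34 to 0.44, Chrna10 from -0.24 to 0.43 and Calb2 from -0.48 to 0.62. Between fractions at P0 these were Kcnma1 from -0.91 to 1.25, Ocm from -0.90 to 2.09 and Chrna10 from -0.44 to 2.38. Between fractions at P5 these were Kcnma1 from -2.40 to 0.13. Between ages in GFP+ cells these were Otof from -0.20 to 2.32, Slc17a8 from -0.25 to 1.59, Kcnma1 from -1.55 to 0.93, Chrna9 from -0.79 to 1.19 and Calb2 from -0.93 to 0.68. Between ages in GFP- cells these were Cacna1d from -0.33 to 0.0053, Kcnma1 from -0.054 to 2.10, Chrna9 from -0.45 to 2.55 and Calb2 from -3.16 to 0.82. With 2 libraries a group, genes at a few counts, such as Ocm at P0 and Chrna9 in GFP- cells, allowed only large differences to be seen.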
